A study of Homo sapiens with 6 samples.

Results

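The keratins of basal and stratified epithelia were examined as a set of 10 genes, KRT4, KRT5, KRT6A, KRT6B, KRT13, KRT14, KRT15, KRT16, KRT17 and KRT81. They were taken by symbol from a table of 58735 genes, in which each symbol occurred once, and they make up 10 of its 55 protein-coding keratin genes. The 6 RNA sequencing libraries all carry the label SW480, an established cell line from a human colorectal adenocarcinoma. Per the labels, 3 libraries came from cells with the genotype DDX39B overexpression and 3 from cells with the genotype WT, called control in the titles. Both groups grew in L-15 medium with fetal bovine serum and without added CO2. The sources used here do not give the time of harvest, the means of overexpression, any vector in the controls, whether the cells were 1 clone or a pool, or whether the libraries came from separate cultures. The p-values therefore measure the spread between these libraries, which may be technical. The study asked which genes differ after DDX39B overexpression.

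Keratins are the intermediate filament proteins of epithelial cells, and a filament forms only from pairs of a type I and a type II keratin. The basal layer of stratified epithelia is known for the pair of KRT5 with KRT14, joined by KRT15, the suprabasal layers of internal squamous mucosa for KRT4 with KRT13, and wounded or activated epidermis for KRT6A and KRT6B with KRT16 and KRT17. KRT81 is a type II keratin of the hair cortex. The lining of the colon is a simple epithelium, whose filaments are mainly built from KRT8 with KRT18, KRT19 and KRT20.

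The level of DDX39B, an RNA helicase of mRNA export and the gene named in the labels, went against them. It measured 15.02, 13.9 and 14.03 FPKM (a read count scaled for gene length and library size) in the libraries labelled overexpression and 39.3, 34.6 and 41.9 FPKM in those labelled control. That is 2.70-fold lower under the overexpression label (limma adjusted p = 6.93e-06). The groups are named by label only, as OE-labelled and Con-labelled, and directions below follow the labels. Of 11 markers of colorectal epithelium, CDX1 had 0 reads in all 6 libraries. CDX2, the intestinal homeobox factor, and GPA33, a surface antigen of colon epithelium, had 1059 and 18 reads in the OE-labelled libraries and 0 in the Con-labelled ones, so these 2 markers of the labelled cell type were not detected in the latter. KRT20, a keratin of intestinal epithelium, went the other way, with 6 reads under the overexpression label and 80 under the control label, and was not tested. The 6 markers that reached the filter were all higher under the OE label, among them EPCAM at 171 against 2.72 FPKM on average and VIL1, the microvillus protein villin, by 22.9-fold. Libraries held 16963075 to 17463697 reads, worked out from FPKM and gene length. Over all genes, 76.8% of 13972 tested genes were past the threshold (adjusted p of 0.05), with 37.5% of all higher and 39.3% lower, and for 80.1% the groups did not overlap.

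Keratin genes arose by duplication, and reads from the stretches that they share can be assigned to more than 1 gene. The coding sequences below are shown because the levels of the closest relatives can depend on how reads of these near-identical stretches were assigned. They are stretches of 120 bases from GENCODE 29 transcripts (GRCh38, minus strand), 5′ to 3′, with capitals where a base differs from that of the gene on the first line. Each stretch starts the longest identical run between the coding sequences of a chosen pair, KRT14 with KRT16 or KRT5 with KRT6B. Both genes of a pair match here by that choice. In the type I genes the stretch holds the start of the central rod domain. It lies in exon 1 of KRT14 (chr17:41586406-41586525), KRT16 (chr17:41612254-41612373), KRT17 (chr17:41624174-41624293) and KRT13 (chr17:41505155-41505274) and in exon 3 of the KRT15 transcript used (chr17:41518429-41518548).
KRT14: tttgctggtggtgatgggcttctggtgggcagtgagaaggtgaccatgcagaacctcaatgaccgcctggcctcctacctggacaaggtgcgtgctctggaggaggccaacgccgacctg
KRT16: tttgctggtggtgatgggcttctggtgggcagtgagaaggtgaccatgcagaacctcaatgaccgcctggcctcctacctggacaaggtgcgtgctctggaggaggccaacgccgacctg
KRT17: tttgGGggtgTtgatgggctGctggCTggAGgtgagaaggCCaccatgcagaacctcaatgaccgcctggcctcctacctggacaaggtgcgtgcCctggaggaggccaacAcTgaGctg
KRT15: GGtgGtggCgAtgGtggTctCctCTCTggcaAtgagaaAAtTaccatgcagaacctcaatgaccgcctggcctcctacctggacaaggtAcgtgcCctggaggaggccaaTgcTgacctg
KRT13: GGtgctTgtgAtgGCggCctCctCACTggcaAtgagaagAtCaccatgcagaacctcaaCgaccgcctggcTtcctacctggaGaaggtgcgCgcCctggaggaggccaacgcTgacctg
KRT16 does not differ from KRT14 here by the choice of the stretch, and their identical run went on to 158 bases. KRT17 differed at 14, KRT15 at 20 and KRT13 at 21 of the 120 bases. The type II stretch was not chosen to match the type I stretch in position. It lies in exon 2 of KRT5 (chr12:52519029-52519148), KRT6A (chr12:52491605-52491724), KRT6B (chr12:52450489-52450608) and KRT4 (chr12:52811846-52811965).
KRT5: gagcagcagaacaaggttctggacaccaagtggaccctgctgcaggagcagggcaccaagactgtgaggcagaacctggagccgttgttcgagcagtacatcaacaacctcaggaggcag
KRT6A: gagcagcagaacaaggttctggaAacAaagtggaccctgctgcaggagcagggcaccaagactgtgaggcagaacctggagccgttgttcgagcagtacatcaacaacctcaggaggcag
KRT6B: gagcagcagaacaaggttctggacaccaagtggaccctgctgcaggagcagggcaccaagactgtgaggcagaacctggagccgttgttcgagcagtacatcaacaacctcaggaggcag
KRT4: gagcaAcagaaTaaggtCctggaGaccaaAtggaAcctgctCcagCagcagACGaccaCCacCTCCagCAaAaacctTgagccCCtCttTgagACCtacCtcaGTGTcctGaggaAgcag
KRT6B matched KRT5 at every base by the choice of the stretch, while KRT6A differed at 2 and KRT4 at 35. Over whole coding sequences KRT6A and KRT6B were 97.5% identical where they aligned, KRT14 and KRT16 88.7%, KRT14 and KRT17 86.4%, KRT16 and KRT17 81.2%, and KRT5 and KRT6B 83.8%.

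The share of a gene's transcript that is also found elsewhere shows where its reads can be mistaken. It does not give how many were. Of the distinct 50-base windows in its transcripts, 47.1% for KRT6B, 43.7% for KRT81 and 32.1% for KRT6A occurred in transcripts of another gene. The share was 16.8% for KRT14, 16.5% for KRT16 and 9.02% for KRT17, and the last occurred mainly in KRT17 pseudogenes. For KRT5 it was 2.17%, for KRT15 0.642%, for KRT13 0.561% and for KRT4 0%. As the read length was not given, windows of 100 bases were also counted. The share was then 29.7% for KRT81, 24.6% for KRT6B and 13.6% for KRT6A. It was 4.69% for KRT16, 4.08% for KRT14, 0.147% for KRT17 and at most 0.723% (KRT5) for the others. The 4 genes with a mean of 10 FPKM or more in a group thus included 3 with a share below 10% (KRT5, KRT13 and KRT17), and KRT81.

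Among the basal keratins, KRT5 was abundant in the OE-labelled libraries while its usual partner KRT14 was close to absent. KRT5 (ENSG00000186081, chr12:52514575-52520687, minus strand), the type II keratin of basal cells, measured 613, 573 and 552 FPKM in the OE-labelled and 0.586, 0.290 and 0.265 FPKM in the Con-labelled libraries. The OE-labelled libraries were all high and close to each other, and the groups were far apart. That is 133089 reads in all against 81, with a log2 fold change on the log2(FPKM + 1) scale of 8.72 (SE 0.098, limma adjusted p = 1.14e-08). Among 19951 protein-coding genes KRT5 ranked 27 to 32 by FPKM in the OE-labelled and 11327 to 12195 in the Con-labelled libraries. In bulk RNA, fewer cells that express a gene and less RNA per cell cannot be told apart.

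KRT14 (ENSG00000186847, chr17:41582279-41586921, minus strand), the type I partner of KRT5, had 9, 10 and 11 reads in the OE-labelled libraries and 0, 0 and 1 read in the Con-labelled ones. Its levels, 0.224 to 0.270 FPKM and 0 to 0.0262 FPKM, were under the filter of a mean of 1 FPKM in every library, so it was not tested. The ratio of the means was 28.1, with an exact 95% counting interval of 4.67 to 1147. KRT15 (ENSG00000171346, chr17:41513743-41522529, minus strand), the other type I keratin of basal cells, measured 3.31, 4.28 and 3.25 FPKM in the OE-labelled libraries and 0.0608, 0.0838 and 0.0761 FPKM in the Con-labelled ones. The groups did not overlap, and KRT15 was 49.1-fold higher under the OE label, from 1369 reads against 26 (log2 fold change 2.10, SE 0.10, limma adjusted p = 3.46e-06). For this low gene the size depended on the scale, at 4.41 with a pseudocount of 0.1 and 5.65 with voom on the reads. Beside KRT14, the pseudogene KRT16P6 (chr17:16817983-16822579), which holds 5.92% of the 50-base windows of KRT14, had 678 reads in the OE-labelled libraries and 0 in the Con-labelled ones. Its part in the 30 reads of KRT14 was not tested.

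Of the mucosal pair, KRT13 was high in the OE-labelled libraries and KRT4 was near 0 in both groups. KRT13 (ENSG00000171401, chr17:41500981-41505705, minus strand), the type I keratin of the suprabasal mucosa, measured 172, 170.2 and 164 FPKM under the OE label and 0.105, 0.142 and 0.0821 FPKM under the Con label. The OE-labelled values lay within a narrow band (CV 2.56%), the lowest CV of the 10 genes in that group. Its 26342 reads stood against 16, a 1536-fold difference in mean FPKM (log2 fold change 7.26, SE 0.051, limma adjusted p = 4.87e-09). KRT4 (ENSG00000170477, chr12:52806549-52814551, minus strand), the type II partner of KRT13, had 3, 2 and 5 reads in the OE-labelled and 10, 15 and 8 reads in the Con-labelled libraries. Its mean was 3.53-fold higher under the Con label (0.199 against 0.0564 FPKM), the group in which KRT13 was near 0, and the groups did not overlap. KRT4 was not tested. Tested with no filter on low values it had a log2 fold change of -0.18 (limma adjusted p = 0.0254).

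The keratins of activated epidermis did not move as a set. KRT17 (ENSG00000128422, chr17:41619441-41624842, minus strand), a type I keratin of wounded epidermis, hair follicles and many carcinomas, measured 1.41, 1.10 and 1.11 FPKM in the OE-labelled libraries and 304, 251 and 353 FPKM in the Con-labelled ones. It had the highest level of the 10 genes in the Con-labelled libraries, where it ranked 78 to 98 among protein-coding genes, against 10400 to 10814 in the others. KRT17 was 251-fold lower under the OE label, with 202 reads against 47287 (log2 fold change -7.09, SE 0.13, limma adjusted p = 5.23e-08).

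KRT16 (ENSG00000186832, chr17:41609778-41615899, minus strand), a type I partner of the KRT6 proteins, went the same way as KRT17 at a far lower level. It measured 0.0917, 0.201 and 0.113 FPKM in the OE-labelled and 4.96, 3.40 and 5.94 FPKM in the Con-labelled libraries. The groups did not overlap, and the mean was 35.2-fold lower under the OE label (18 reads against 588, log2 fold change -2.32, SE 0.17, limma adjusted p = 2.06e-05). With a pseudocount of 0.1 the log2 fold change was -4.36, and with voom -4.95. KRT16 shares 0.661% of its 50-base windows with KRT17, and the part of KRT17 reads in the 588 reads of KRT16 was not tested.

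Control-labelled replicate 3 was highest, and replicate 2 lowest, for both KRT17 and KRT16. This was not particular to them. KRT8 (171, 178 and 189 FPKM in the Con-labelled libraries 1, 2 and 3) and the low KRT5, KRT13 and KRT15 had other orders there. KRT81 (1.05, 0.983 and 1.30 FPKM), KRT7, KRT18, KRT80 and KRT10 had the order of KRT17. The same order held for DNAJB1, a heat shock co-chaperone that binds misfolded proteins, at 259, 139 and 611 FPKM in the Con-labelled libraries 1, 2 and 3, and for HSPB1, a small heat shock protein, at 302, 240 and 779 FPKM. The part of these 2 genes in the keratin values was not tested. Without Con-labelled replicate 3 the log2 fold changes of KRT17 and KRT16 were -6.98 and -2.17.

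The type II keratins of activated epidermis, KRT6A and KRT6B, had reads almost only in the OE-labelled libraries. KRT6A (ENSG00000205420, chr12:52487174-52493257, minus strand) had 24, 27 and 18 reads there and 0 in each Con-labelled library, so its mean of 0.440 FPKM was at least 21.4-fold higher if 3 reads over the whole group are taken as the floor. KRT6B (ENSG00000185479, chr12:52446651-52452126, minus strand) had 26, 19 and 28 reads against 1, 0 and 0, a ratio of 66.7 with an exact 95% counting interval of 11.6 to 2671. Both were under the filter and were not tested. KRT5, which shares 1.42% and 1.80% of its 50-base windows with KRT6A and KRT6B, had 133089 reads in the same libraries, and its part in the 69 and 73 reads of KRT6A and KRT6B was not tested. KRT6C, the third near-identical copy, had 4 reads against 0.

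KRT81 (ENSG00000205426, chr12:52285913-52291534, minus strand), the hair cortex keratin, measured 39.2, 47.2 and 42.5 FPKM in the OE-labelled libraries and 1.05, 0.983 and 1.30 FPKM in the Con-labelled ones. All OE-labelled libraries lay above all Con-labelled ones, and the mean was 38.7-fold higher (4443 reads against 107, log2 fold change 4.38, SE 0.091, limma adjusted p = 8.37e-08). KRT86, a neighbouring hair keratin that holds 37.6% of the 50-base windows of KRT81 and whose gene spans it on the other strand, measured 5.24, 5.20 and 5.47 FPKM against 2.28, 2.23 and 3.10 FPKM. It was 2.09-fold higher under the OE label (limma adjusted p = 2.90e-04). The 2 genes share 0 exon bases in the genome, and the sources used here do not say how reads of their common sequence were assigned.

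**Figure D1:**
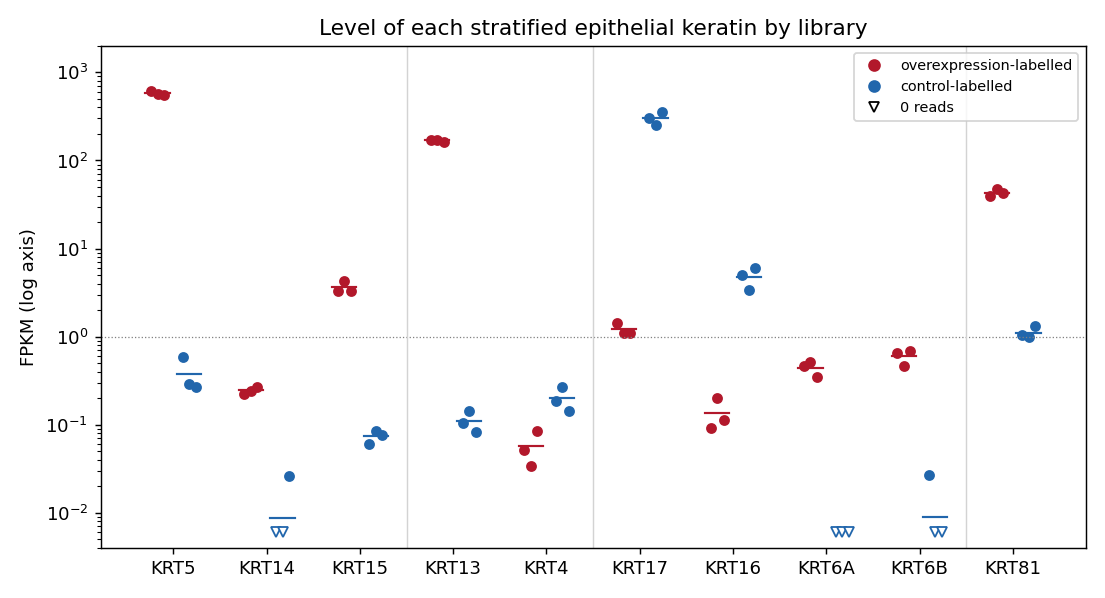
Level of each of the 10 keratins in each library, in FPKM on a log axis, with a horizontal bar at the group mean, open triangles for 0 reads and a dotted line at 1 FPKM. KRT5, KRT13 and KRT81 stand above 30 FPKM in the OE-labelled libraries alone, KRT17 above 200 FPKM in the Con-labelled libraries alone, and KRT4, KRT6A, KRT6B and KRT14 below 1 FPKM in all 6.

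Of the 10 keratins, 6 reached a mean of 1 FPKM and were tested, and 4 of these (KRT5, KRT13, KRT15 and KRT81) were higher and 2 (KRT16 and KRT17) lower under the OE label. The share of all tested genes past the threshold was 76.8%, and a gene may pass the filter through 1 group alone. The groups did not overlap for any of the 10 genes, where 52.7% of the 33913 genes with a read did not. In size, the 6 differed from 35.2-fold (KRT16) to 1536-fold (KRT13) in mean FPKM. A cut at 30-fold was not planned and lies just under the smallest of these folds. That all 6 passed it, as 7.19% of all tested genes did while past the threshold, is therefore not a result. With no filter on low values 7 were higher and 3 lower of the 10, beside 44.5% of 33913 genes past the threshold.

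The order of levels differed between the groups. In the OE-labelled libraries it ran from KRT5 through KRT13, KRT81, KRT15, KRT17, KRT6B, KRT6A, KRT14 and KRT16 to KRT4, and of these neighbours KRT6B (0.461 to 0.687 FPKM) and KRT6A (0.344 to 0.510 FPKM) overlapped. In the Con-labelled libraries KRT17 was followed by KRT16, KRT81, KRT5, KRT4, KRT13 and KRT15, while KRT6B, KRT14 and KRT6A had 1, 1 and 0 reads in all. There KRT5 (0.265 to 0.586 FPKM) overlapped KRT4 (0.144 to 0.268 FPKM), and KRT13 (0.0821 to 0.142 FPKM) overlapped KRT15 (0.0608 to 0.0838 FPKM). Where abundant, in the OE-labelled libraries, KRT5 and KRT13 had a CV of 5.34% and 2.56%, and KRT81 9.31%. In the Con-labelled libraries, with few reads, the CV was 47.0% for KRT5, 27.7% for KRT13 and 15.1% for KRT81.

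Because filaments need both types, each keratin was also set against the summed FPKM of all keratin genes of its type in the same library. In the OE-labelled libraries KRT5 made up 41.2% to 43.3% of the type II keratin level and KRT13 10.2% to 10.7% of the type I level. In the Con-labelled libraries the positions were the reverse, as KRT17 made up 53.8% to 56.0% of the type I level while KRT5 and the other type II members together made up 0.433% to 0.564% of the type II level. With the length of the longest coding transcript in place of all annotated exons, a setting chosen after seeing the data, the type II members held 33.9% on average in the OE-labelled and 0.258% in the Con-labelled libraries, where the main values were 45.3% and 0.498%. Counted in reads, the latter was 0.234%.

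**Figure D2:**
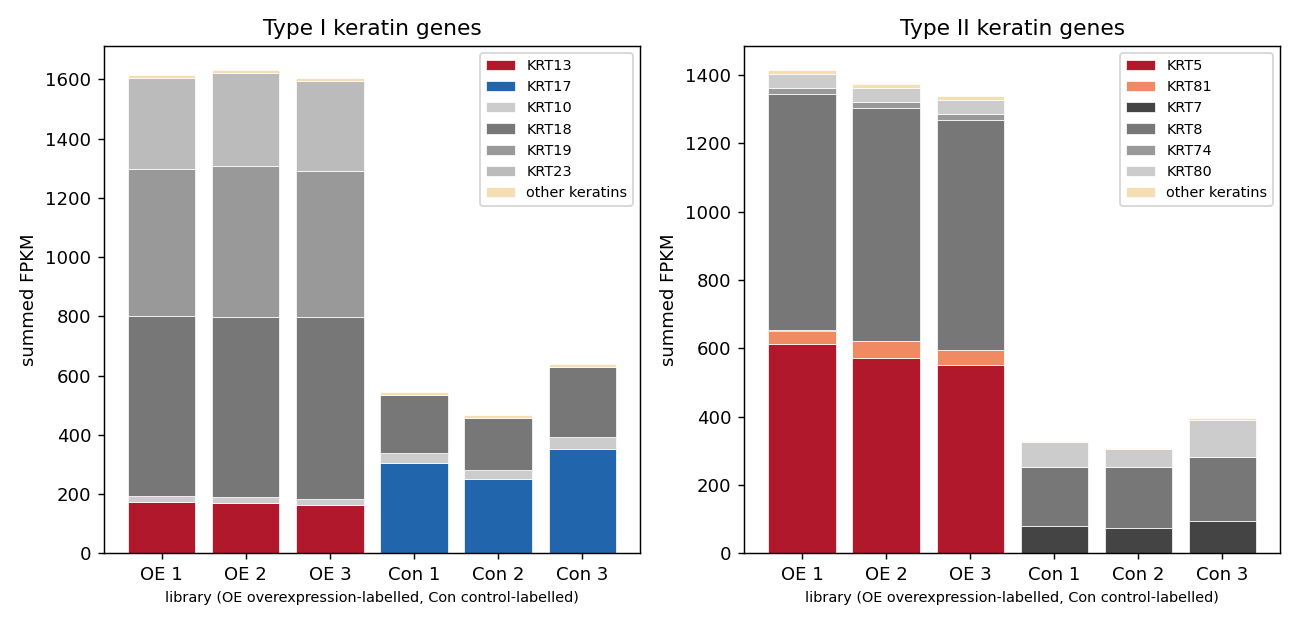
Summed FPKM of type I (left) and type II (right) keratin genes in each library, with the stratified keratins KRT13, KRT17, KRT5 and KRT81 in colour and other named keratins in grey. KRT17 fills more than 50% of each type I bar in the Con-labelled libraries, and KRT5 more than 40% of each type II bar in the OE-labelled ones.

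Some known partners stood at levels much further apart than others. The FPKM of KRT5 was 127 to 174 times that of KRT14 and KRT15 together in the OE-labelled libraries, and 3.28 to 3.48 times when KRT13 was added to them. For KRT4 and KRT13 the ratio of type II to type I was at most 5.15e-04 there. The summed KRT6A, KRT6B and KRT6C stood at 0.748 to 0.875 of the summed KRT16 and KRT17 in the OE-labelled libraries, where all 5 were low, and at no more than 8.69e-05 in the Con-labelled ones. For KRT8 and KRT18 the ratio was 0.801 to 1.14 over all 6 libraries. With coding transcript lengths the KRT8 to KRT18 ratio was 1.19 to 1.69. The KRT6 ratio in the OE-labelled libraries was then 0.456 to 0.516. Over all 55 keratin genes the ratio of type II to type I was 0.834 to 0.876 in the OE-labelled and 0.603 to 0.665 in the Con-labelled libraries. With coding transcript lengths it was 1.07 to 1.12 and 0.749 to 0.867. The simple keratins KRT8 and KRT18 were abundant in both groups (681 and 609.5 FPKM against 179 and 202 FPKM on average), KRT19 measured 495 to 509 FPKM against at most 0.499 FPKM, and KRT7 73.0 to 92.7 FPKM in the Con-labelled libraries against at most 1.56 FPKM. KRT23, a type I keratin of simple and glandular epithelia, measured 308 against 0.263 FPKM on average.

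In the genome the type I keratins lie together on chromosome 17 and the type II keratins, with KRT18, on chromosome 12. On chromosome 17 the genes KRT13, KRT15 and KRT19 follow each other, and all 3 were higher under the OE label. KRT9 and KRT14 come next, each below 0.4 FPKM in every library, and then KRT16 and KRT17, both lower. On chromosome 12 the neighbours of KRT5 on the higher-coordinate side are KRT71 and KRT74, keratins of the inner root sheath of the hair follicle. KRT74 measured 17.9 FPKM on average in the OE-labelled libraries, with 2858 reads against 1 (limma log2 fold change 4.23). KRT71 had 591 reads against 2. On the other side of KRT5 lie KRT6A, KRT6C and KRT6B, with 69, 4 and 73 reads. Of the 45 keratin genes outside the set 10 were tested, 7 higher and 3 lower, and 11 had 0 reads in all 6 libraries. The other keratins with a mean of 10 FPKM in a group and a lower level under the OE label, besides KRT7, were KRT80 (40.3 against 78.6 FPKM) and KRT10 (19.6 against 35.4 FPKM).

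**Figure D3:**
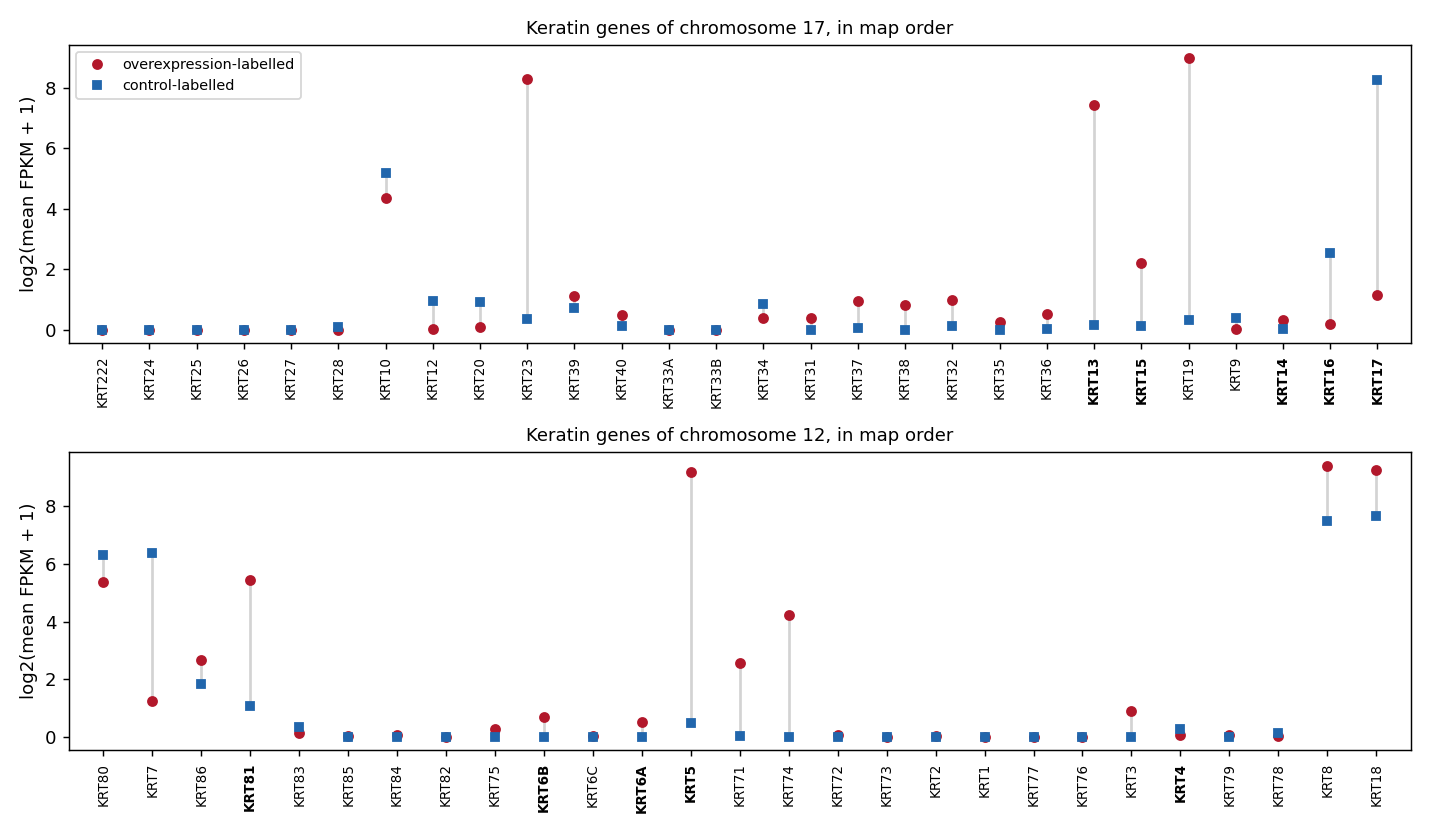
Mean level of every protein-coding keratin gene in map order on chromosomes 17 and 12, as log2(mean FPKM + 1) per group, with the 10 members in bold. KRT13, KRT15 and KRT19 are adjacent and higher under the OE label, KRT16 and KRT17 are adjacent and lower, and KRT5 stands beside KRT71 and KRT74.

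Genes that work beside the basal keratins were taken from fixed lists, whose tested members had a median log2 fold change to be read against -0.03 over all tested genes. Their counts stand beside 37.5% of all tested genes higher and 39.3% lower. Hemidesmosome and basal adhesion genes anchor basal keratins to the basement membrane. Of 12 such genes 11 were tested, 7 were higher and 3 lower, with a median of 0.94. ITGB4 and ITGA6, the integrin pair of the hemidesmosome, were 16.2-fold and 15.2-fold higher (limma adjusted p = 1.73e-08 and 1.85e-07). PLEC, the plectin gene that links keratins to that integrin, was 1.94-fold higher. COL7A1, the collagen of anchoring fibrils, was 8.36-fold lower and ITGB1 3.26-fold lower. DST of the same list was 3.16-fold lower (limma adjusted p = 1.62e-05). COL17A1, also of this list, was low in both groups, at 0.156 against 0.0706 FPKM on average, and was not tested.

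Other markers of basal cells moved in both directions, 5 higher and 6 lower of 11 tested genes from 16, with a median of -0.57. NGFR, a receptor used to mark basal cells, measured 151, 157 and 157 FPKM in the OE-labelled and 0.384, 0.257 and 0.835 FPKM in the Con-labelled libraries. S100A2 was 34.6-fold and CDH3, the P-cadherin gene, 19.3-fold higher, whereas CAV1 was 5.78-fold lower. SFN, the 14-3-3 sigma gene, measured 94.4 to 105 FPKM against 61.8 to 70.6 FPKM (limma adjusted p = 2.37e-04). TP63, the master regulator of stratified epithelia, was named after its values were seen. It had 2 reads in the OE-labelled libraries, where KRT5 was high, and measured 0.346, 0.405 and 1.19 FPKM (242 reads) in the Con-labelled ones. The level was under the filter and was not tested, and the highest Con-labelled value was again that of replicate 3.

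Desmosomes tie keratin filaments to neighbouring cells, and of 15 of their genes 8 were tested, 5 higher and 3 lower, with a median of 0.59. PKP2 was 3.46-fold and PPL, periplakin, 1.97-fold higher, while DSG2, a desmosomal cadherin, was 3.71-fold lower (limma adjusted p = 7.72e-07). JUP, plakoglobin, and PERP were 2.56-fold and 1.71-fold lower. Genes of the suprabasal layers and the cornified envelope were mostly below the filter. Of 39 such genes 8 were tested, 4 higher and 4 lower (median -0.25), and 14 had 0 reads in the OE-labelled and 21 in the Con-labelled libraries. KLK7, a protease of the cornified layer, had 778 reads against 1. ANXA1 was 12.4-fold lower, CSTA, cystatin A, was lower with 10 reads against 223, and EMP1 was 3.46-fold higher. IVL and LOR, which mark terminal differentiation of epidermis, and the suprabasal keratin KRT1 had 0 reads in all 6 libraries. KRT10 and KRT80 of this list were expressed in both groups. They measured 19.6 and 40.3 FPKM on average under the OE label and 35.4 and 78.6 FPKM under the Con label. FLG, of the same list, had 135, 169 and 175 reads in the OE-labelled libraries and 0 in the Con-labelled ones. It was under the filter and was not tested.

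Of 37 regulators of stratified epithelial transcription 22 were tested, 8 higher and 11 lower, with a median of -0.29 that was the same with genes at 0 set to their bound. SOX9, a factor of hair follicle and intestinal stem cells, measured 96.7 to 101 FPKM against 0.592 to 0.811 FPKM. TFAP2A, the AP-2 alpha factor, was 31.3-fold lower (limma adjusted p = 9.91e-08). FOXE1 and FOXN1, factors of hair follicles and of thyroid and thymus epithelium, had 0 reads in the OE-labelled libraries. FOXE1 was at least 473-fold lower, and FOXN1 at least 350-fold. KLF5 measured 32.1 ± 0.94 against 37.7 ± 2.0 FPKM (SD, n = 3 each), and its limma adjusted p of 9.74e-03 rose to 0.116 with each library rescaled to its summed reads and to 0.271 after quantile normalization. The list of simple keratins, with 6 genes, had 4 higher and 1 lower of 5 tested (median 1.92).

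**Figure D4:**
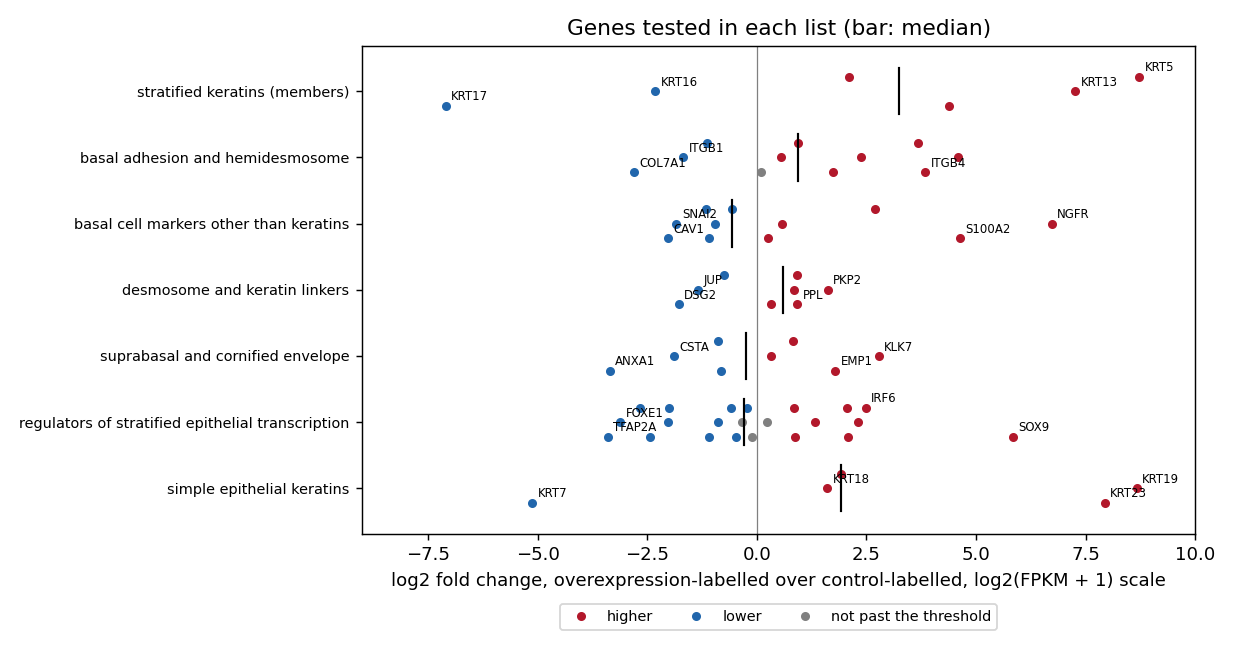
Log2 fold change of every tested gene in the set of stratified keratins and in 6 fixed lists, with a bar at the median, red for higher, blue for lower and grey for not past an adjusted p of 0.05. KRT5 and KRT17 lie at the 2 ends of the keratin row, and every list has genes on both sides of 0.

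The genes with the most similar levels to each abundant member were found by the Euclidean distance between log2(FPKM + 1) values over the 6 libraries, among protein-coding genes. For KRT5 they were KRT19 (distance 0.47), KRT23 (1.62) and CST1 (2.57). PRF1, APCDD1 and FGF3 were nearest to KRT13, at 0.19, 0.20 and 0.38. For KRT17 they were CD55 (1.02), ALPL (2.05) and BASP1 (2.25), and for KRT81 they included FUCA1 (0.59) and GLI3 (0.69). As all 6 libraries fall into 2 groups, these are genes with like levels in each group, and the distances carry no test.

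Markers of other cell types were mostly near 0, except ESAM. The summed FPKM of 10 leukocyte markers was 1.51 to 2.43 in the OE-labelled and 0.978 to 1.23 in the Con-labelled libraries, with 0 of the 10 tested and 3 and 5 of them at 0 reads. For 8 fibroblast markers it was 1.54 to 1.67 and 4.34 to 8.22, with 4 and 1 at 0 reads and 1 tested, COL1A1, which was 4.01-fold lower. The sum of 6 endothelial markers, 1.04 to 1.43 and 36.2 to 50.6 FPKM, came in the Con-labelled libraries almost wholly from ESAM (35.6 to 50.4 FPKM), an adhesion gene of endothelium, and 3 of the 6 had 0 reads under the OE label and 1 under the Con label. The part of such cells in the keratin differences was not tested.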

How the data were processed

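RNA from 6 libraries, 3 per group, was extracted with an RNeasy kit and prepared with a SMARTer kit, per the labels' protocols. The authors deposited FPKM values and a length for each gene. The aligner, the counter, the read length and the use of strand were not given in the sources used here. Processing notes of the submitters name mm10, a mouse build, yet all 58735 genes matched human GENCODE 29 (GRCh38) in identifier, position and symbol. Deposited lengths of the 10 keratins equalled the sum of their annotated exons.

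Reads were worked out as FPKM times length over the smallest such product of the library, and 100% of values above 0 came out whole within 0.001 read. The library size that FPKM implies was 1.038 to 1.052 times the summed reads in the OE-labelled libraries. In the Con-labelled ones it was 0.958 to 0.995 times the summed reads. Intervals and floors cover counting error only. The floor was 3 reads over all 3 libraries of a group. In a single library 3 reads equal 0.166 to 0.184 FPKM at 1 kilobase. Folds are ratios of mean FPKM. Testing used limma 3.58.1 (R 4.3.3, two-sided, with a trend) on log2(FPKM + 1), a scale that understates changes of low genes, for the 13972 genes whose mean reached 1 FPKM, with group as the only term and Benjamini-Hochberg adjustment over all of them. Shared sequence was counted as identical windows of 50 bases, and also of 100 bases, in GENCODE 29 transcripts.

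The members and lists were chosen with earlier results of these data known. Named were all members, other keratins with a mean of 10 FPKM in a group, from each list up to 4 called genes of largest change and up to 2 of highest level, and 3 genes per abundant member by likeness. KRT71, KRT86, KRT16P6, KRT6C, KRT9, TP63, CDX1, GPA33, KRT20, IVL, LOR, KRT1, FLG, DST and COL17A1 were named once their values had been seen. The pseudocount, filter, scaling, variance model, replicate block and libraries were varied in turn. Some genes that this rule names are not reported here.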

Additional observations from a re-analysis of the deposited data

How the results depend on the processing

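The 6 tested keratins kept their direction and their side of the threshold in all 94 refits over 16 alternatives that could test them. For 42 other genes named by the rule above, 659 of 666 refits did the same. The exceptions were KLF5, given above and at an adjusted p of 0.113 with voom, and HSPB1, at 0.0799 with no filter on low values and 0.0821 to 0.0883 without 1 OE-labelled library. Sizes depended on the scale where a group was near 0. With a pseudocount of 0.1 and with voom the log2 fold change was 9.66 and 10.6 for KRT13 and 10.3 and 10.75 for KRT5, and those of KRT15 and KRT16 are given above. Without a filter 7 keratins were higher, and with a mean of at least 5 FPKM 1 was lower, as fewer genes were tested. With no filter 8155 genes of the table were higher, and with the stricter filter 2784 were higher and 3434 lower. The stricter filter left 3 higher and 3 lower basal markers and 2 higher regulators. No filter gave 5 lower desmosome genes and 2 lower simple keratins, and TPM also 2 of the latter. With voom 5 other intermediate filament genes were higher. Leaving out 1 library in turn gave 4606 to 5566 higher and 5021 to 5578 lower genes, and 2 to 4 higher chaperone genes, with 4 without Con-labelled replicate 3. The median over all genes moved from -0.03 to 0.075 with voom, a shift of the scale that is small beside the keratin values. The type I share of the members was 11.4% in reads under the OE label and 57.8% with coding transcript length under the Con label. The type II share was 34.2% in reads and 33.9% with coding transcript length under the OE label, and 0.234% and 0.258% under the Con label. Beyond the number of genes tested, the cause of these differences was not tested. With the replicate block 5111 genes were higher and 5395 lower, and the keratin counts stayed at 4 and 2. Same-numbered libraries did not deviate together (correlation -0.0217 to 0.0075), so the numbers were not taken as pairs. Depth limits KRT4, KRT6A, KRT6B and KRT14, each with at most 28 reads in a library.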

Other observations

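Other intermediate filament genes and the genes that assemble or degrade keratins were also measured. Of 13 non-keratin filament genes 8 were tested, 3 higher and 3 lower under the OE label. NES, nestin, was 6.06-fold and LMNB2, a nuclear lamin, 1.59-fold higher, and LMNA, which encodes lamins A and C, 1.32-fold higher. SYNM, synemin, was 7.01-fold lower. INA, a neuronal filament gene, had 0 reads under the OE label and 814 under the Con label, and was at least 291-fold lower. The median log2 fold change of the 8 was 0.36, beside -0.03 over all tested genes.

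All 13 genes of keratin assembly, chaperoning and turnover were tested, of which 2 were higher and 7 lower, with a median of -0.35. EPPK1, epiplakin, which binds keratin filaments, was 18.6-fold lower (limma adjusted p = 2.82e-07). DNAJB1 was 7.03-fold and HSPB1 2.59-fold lower, with adjusted p of 2.71e-03 and 0.0352 by limma, and both were highest in Con-labelled replicate 3. Without that library they were 4.16-fold and 1.59-fold lower (limma adjusted p = 5.63e-04 and 1.11e-03), and 4 of the 13 genes were higher.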
